A study of Mus musculus with 12 samples.

Results

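Histone acetyltransferases add acetyl groups to lysines of histone tails, a mark of open and transcribed chromatin, and histone deacetylases take them off. The study of interleukin-7 (IL-7) in CD4+ T cells and Th9 cells was examined here for 10 genes of these enzymes, taken by name: the acetyltransferases Ep300, Crebbp, Kat2a and Kat2b and the deacetylases Hdac1, Hdac2, Hdac3, Hdac7, Hdac10 and Sirt7. The genes were chosen with earlier results of these data known. Every probe annotated to one of these symbols was used. The table held 45281 probes with 19057 gene symbols, and 19 of the probes belonged to 9 of the 10 genes, with 1 to 4 probes a gene. No probe used here was annotated to Hdac1, which was not analysed here.

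RNA from 12 preparations of CD4+ T cells was hybridised to Illumina mouse BeadChips, 1 array a preparation. The cells came from spleens of mice aged 2 months, labelled as the strain B6.Cg-Tg(TcraTcrb)425Cbn/J, which carries a transgenic T cell receptor, while the design text names C57BL/6. On the first BeadChip were naive CD4+ T cells given IL-7 for 0, 6 or 24 h, with 2 arrays a time. On the second were IL-7 Th9 cells, grown from naive cells that had received IL-7 for 48 h and were then kept for 3 days in Th9 culture, and Th9 cells, kept in the same culture for 3 days without the IL-7 step, with 3 arrays a group. The only naive cells without IL-7 were those at 0 h, so IL-7 cannot be told apart from time in culture in any change they show. No source used here says whether replicates came from separate animals or cultures, so the p-values measure the spread between these preparations, which may be technical.

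EP300 and CREBBP, the proteins of Ep300 and Crebbp, are large coactivators that transcription factors bring to enhancers and promoters. KAT2A and KAT2B (also named GCN5 and PCAF) are the catalytic subunits of the SAGA and ATAC complexes. HDAC1 and HDAC2 work in the SIN3, NuRD and CoREST corepressors, HDAC3 in the NCoR and SMRT corepressors, and HDAC7 is a class IIa enzyme of the T lineage that leaves the nucleus on T cell receptor signalling. HDAC10 is known as a polyamine deacetylase of the cytosol, and SIRT7 is an NAD-dependent deacetylase of the nucleolus. IL-7 keeps naive T cells alive through a receptor that activates JAK kinases and the transcription factor STAT5, which binds the palindrome TTCNNNGAA.

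The bases before a transcription start of 4 of the genes are printed, and capitals mark each TTCNNNGAA. On the probe tested for each of these genes, every naive array with IL-7 lay above (Kat2b) or below (Ep300, Hdac7 and Sirt7) both arrays at 0 h. The same held for Hdac3 (above) and Hdac10 (below), for which the promoter set used here had no sequence. Among all features, 57.8% did not overlap with 0 h at 6 h and 63.3% at 24 h. The share that did so at both times was not counted. Of the 4 genes printed, Kat2b and Sirt7 passed the test in a comparison with 0 h, and Ep300 and Hdac7 did not. Of the Hdac7 starts, the one with the most matches is shown. The sequences are RefSeq's, on build GRCm38.p6, and end at the base before the start. Ep300 and Kat2b lie on the plus strand at chr15:81586064-81586213 and chr17:53566821-53566970, and Hdac7 and Sirt7 on the minus strand at chr15:97831768-97831917 and chr11:120625015-120625114.
Ep300: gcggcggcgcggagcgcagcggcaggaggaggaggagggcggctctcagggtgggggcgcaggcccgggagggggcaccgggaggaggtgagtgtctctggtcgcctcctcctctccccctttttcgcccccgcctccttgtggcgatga
Kat2b: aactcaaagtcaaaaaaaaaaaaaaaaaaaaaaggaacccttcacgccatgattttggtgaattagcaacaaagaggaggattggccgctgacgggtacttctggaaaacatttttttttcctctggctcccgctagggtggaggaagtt
Hdac7: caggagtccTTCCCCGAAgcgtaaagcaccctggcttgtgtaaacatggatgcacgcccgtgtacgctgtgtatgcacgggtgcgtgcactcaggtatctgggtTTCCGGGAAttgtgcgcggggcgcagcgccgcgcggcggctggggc
Sirt7: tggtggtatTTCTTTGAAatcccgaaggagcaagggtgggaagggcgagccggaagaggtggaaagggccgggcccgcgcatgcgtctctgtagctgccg
The Hdac7 window held the motif at 141 and 46 bases before the start, and the Sirt7 window held it at 91. Another of the 4 Hdac7 starts had it at 222 bases. The motif is its own reverse complement, so both strands were read together. It was held by 3 of the 11 windows of 250 bases of 7 member genes, against 7.02% of all 32851 windows in the table. The windows of Ep300, Crebbp, Kat2a, Kat2b and Hdac2 did not hold these letters. A match is a description of the sequence and no measure of binding.

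Mean deposited signal per array lay between 157.6 and 245.2 on the first BeadChip, with 32.1 to 34.5% of the probes detected (detection p under 0.01), and between 116.1 and 221.6 on the second, with 28.3 to 32.1%. The number of arrays limits the precision. Of the 8 T cell markers with a probe, 7 were detected on every array, Cd4 among them. Of the 2 CD8 T cell markers, Cd8b1 was also detected on every array, with deposited signals of 290.9 to 1999, and Cd8a on none. Il9 was detected on all 6 arrays of the second BeadChip and on none of the first. Replicate 1 at 6 h stood apart. It had the highest normalised signal of the 6 naive arrays for 6 of 7 B and antigen-presenting cell markers, 10 of 13 myeloid and dendritic cell markers and both erythroid markers. The same held for 2 of 8 T cell markers, 0 of 2 CD8 T cell markers and 0 of 9 natural killer cell markers. Among those counted, the erythroid marker Alas2 and the T cell marker Cd5 were detected on no naive array. Summed deposited signal of the B and antigen-presenting cell markers was 475.3 to 549.6 at 0 h, 8854.8 on that array and 283.1 on the other 6 h array, and 134.3 to 260.1 at 24 h. Of those markers Pax5 and Ms4a1 were detected on no naive array. For the myeloid and dendritic cell markers the sums were 642.1 to 650.8 at 0 h, 3751.2 on that array and 400.0 on the other at 6 h, and 262.2 to 273.0 at 24 h. Erythroid markers summed to 349.1 to 476.4 at 0 h, 1414.5 on that array and 163.3 on the other at 6 h, and 44.6 to 52.6 at 24 h. Natural killer cell markers summed to 3755.5 to 5572.6 at 0 h, 1801.4 to 2370.5 at 6 h and 2905.6 to 4394.9 at 24 h. T cell markers summed to 30257.4 to 37968.5 at 0 h, 19057.2 to 22529.9 at 6 h and 22493.6 to 26067 at 24 h. None of these sums is normalised, and mean deposited signal was 245.2 and 197.6 at 0 h, against 157.6 to 219.3 with IL-7. On normalised signals 1 of 7 tested T cell markers was called lower by limma at each time, where 5.32% (6 h) and 2.86% (24 h) of all features were. The median log2 fold change of the 7 was -0.23 at 6 h and -0.18 at 24 h. The part of these markers in the changes below was not tested, and each call of the 9 genes at 6 h is given with and without replicate 1.

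Values below are normalised log2 signals of single probes, which can be compared between arrays of 1 probe but not between genes. Of the 19 member probes, 14 passed the detection filter in naive cells (all 9 genes) and 9 in Th9 cells (8 genes, without Crebbp). The 5 probes detected on no array, of Ep300, Crebbp, Hdac3 and Sirt7, stood at 4.17 to 5.08 on the 12 arrays. All 9 probes used for tests in naive cells were detected on every naive array, so none of them passed the filter through 1 group. In mixed preparations, fewer cells of a type and less RNA per cell cannot be told apart.

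**Figure D1:**
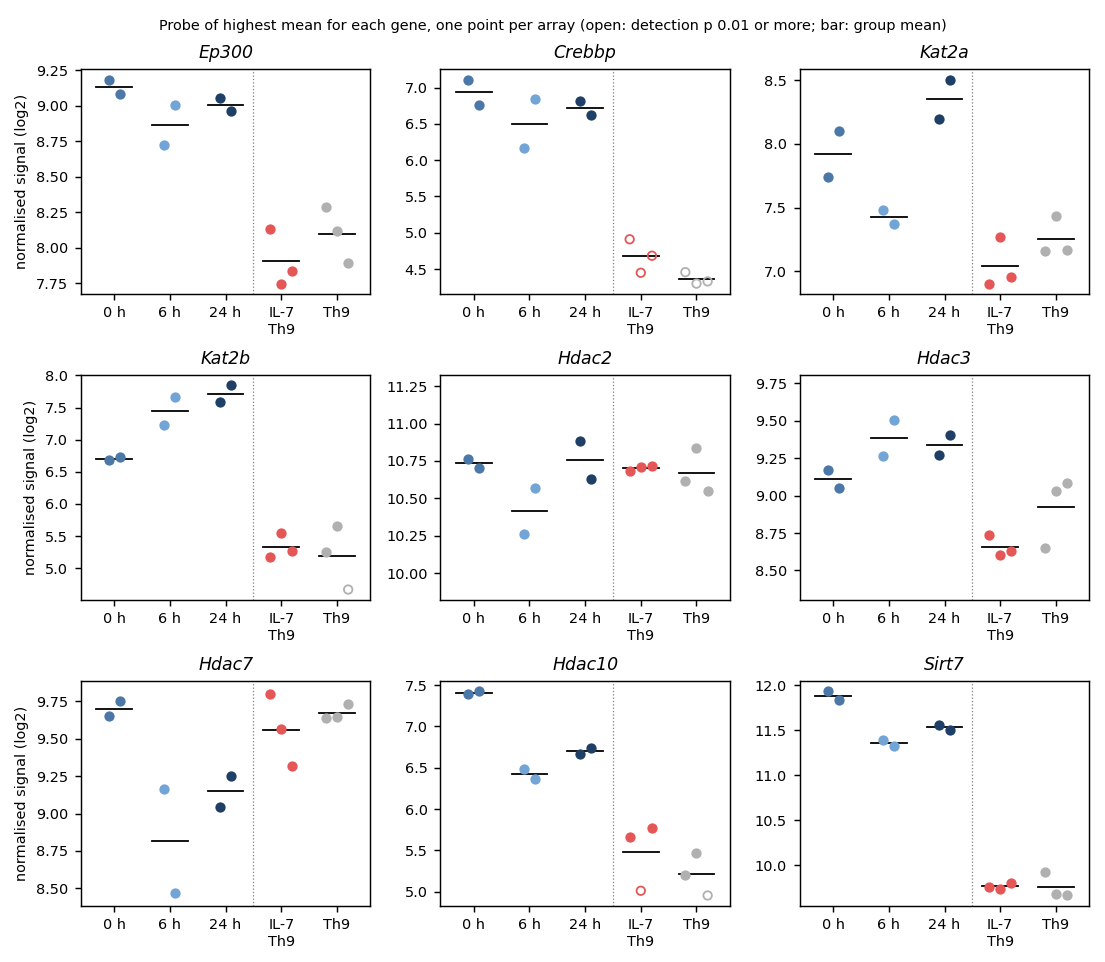
Normalised log2 signal (vertical axis, a separate range for each gene) of the 9 measured genes on each array, by group, with the mean as a bar and open circles where the probe was not detected. On the probes shown, Kat2b and Hdac3 were higher and Ep300, Hdac7, Hdac10 and Sirt7 were lower on every array with IL-7 in naive cells than on both arrays at 0 h. Of all features, 57.8% did not overlap with 0 h at 6 h and 63.3% at 24 h. The IL-7 Th9 and Th9 arrays overlapped for every gene shown.

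In naive cells 3 of the 9 genes changed past the test in at least 1 comparison with 0 h. That share was not counted for all features, of which 9.43% were called at 6 h and 6.16% at 24 h. The acetyltransferase Kat2b rose by 24 h, while the deacetylases Hdac10 (6 and 24 h) and Sirt7 (6 h) fell. Ep300, Crebbp, Kat2a, Hdac2, Hdac3 and Hdac7 passed it in neither comparison. At 6 h against 0 h, 2 of 9 genes were called at an adjusted p under 0.05 (limma, 2-sided, adjusted over all 11065 features), both lower, where 9.43% of all features were called, 4.1% higher and 5.32% lower. At 24 h against 0 h, 2 of 9 were called, 1 higher and 1 lower, where 6.16% of all features were called, 3.3% higher and 2.86% lower. Both comparisons use the same pair of 0 h arrays. For 8 of the 9 genes the 6 h arrays were all on 1 side of the 0 h arrays, against 57.8% of all features. At 24 h this held for 7 of 9, against 63.3%.

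Kat2b, the catalytic subunit that SAGA and ATAC hold as an alternative to Kat2a, had normalised log2 signals of 6.68 and 6.73 at 0 h, 7.22 and 7.67 at 6 h, and 7.59 and 7.84 at 24 h (probe ILMN_1215305). The groups did not overlap with 0 h at either time, while the arrays at 6 and 24 h overlapped each other. Its log2 fold change was 1.01 ± 0.19 (SE, 2.02-fold) at 24 h against 0 h, with an adjusted p of 0.035 from limma. At 6 h it was 0.74 ± 0.19 (1.67-fold) with an adjusted p of 0.059, which missed the threshold. Without replicate 1 at 6 h the 6 h value was 0.97 with an adjusted p of 0.0055, and without replicate 2 it was 0.52 with an adjusted p of 0.27, so 1 array decided that call. At 24 h the change kept its direction and lay between 0.88 and 1.14 when any of the 6 arrays was left out. The call at 24 h was lost without either array of the 0 h or the 24 h group, at adjusted p of 0.16 to 0.24 from limma. In those fits the lone array is assumed to vary like the other groups.

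Kat2b has 2 more probes, which were not used to represent the gene. On ILMN_1231686 the signals were 6.49 and 6.62 at 0 h, 7.13 and 7.59 at 6 h, and 7.77 and 7.77 at 24 h. On the dimmer ILMN_2591641 they were 5.11 and 5.29 at 0 h, 5.62 and 5.80 at 6 h, and 5.90 and 6.53 at 24 h. All 3 probes thus had the 0 h arrays lowest and the 24 h mean highest. With every probe as a feature of its own, the log2 fold changes at 24 h against 0 h were 1.01 ± 0.19 for the first, 1.22 ± 0.18 for ILMN_1231686 (adjusted p 0.019, limma) and 1.01 ± 0.22 for ILMN_2591641 (adjusted p 0.0504). At 6 h ILMN_1231686 stood at 0.81 ± 0.18 with an adjusted p of 0.043 from limma, and ILMN_2591641 at 0.51 ± 0.22 with an adjusted p of 0.19. The probes share the RNA of the same arrays and are not replicates of each other.

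**Figure D2:**
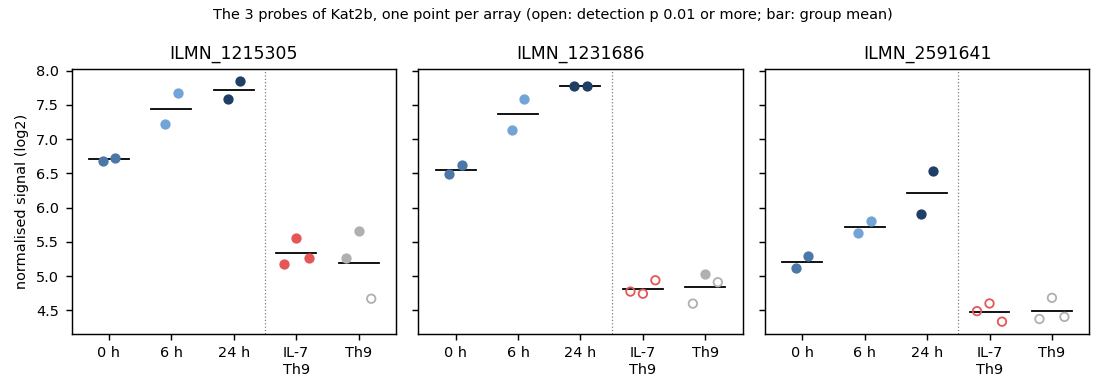
Normalised log2 signal of the 3 Kat2b probes on each array (shared vertical axis), with group means as bars and open circles where a probe was not detected. On every probe both 0 h arrays were below both 6 h arrays and both 24 h arrays, and ILMN_2591641 was detected on none of the IL-7 Th9 and Th9 arrays.

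Kat2a, the paralogue of Kat2b in the same complexes, had normalised log2 signals of 7.74 and 8.10 at 0 h, 7.49 and 7.37 at 6 h, and 8.20 and 8.51 at 24 h. The lowest arrays were those at 6 h and the highest those at 24 h, with no overlap between the 3 groups. Its log2 fold change was -0.49 ± 0.18 at 6 h against 0 h (adjusted p 0.13, limma) and 0.43 ± 0.18 at 24 h against 0 h (adjusted p 0.20). At 24 h against 6 h it was 0.92 ± 0.18 (1.89-fold) with an adjusted p of 0.11. The threshold was missed in all 3, except that without replicate 2 at 6 h the change from 6 to 24 h was called, at 0.87 with an adjusted p of 0.032 from limma. Neither the direction at 6 h nor that at 24 h turned when any array was left out.

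Ep300 encodes a coactivator with a catalytic acetyltransferase domain and a bromodomain. Its signals were 9.18 and 9.08 at 0 h, 8.72 and 9.003 at 6 h, and 9.05 and 8.96 at 24 h (ILMN_2800358). The 6 h and 24 h arrays lay below both 0 h arrays, by a log2 fold change of -0.27 ± 0.14 at 6 h (adjusted p 0.27, limma; 95% interval -0.62 to 0.08) and -0.13 ± 0.14 at 24 h (adjusted p 0.63; -0.48 to 0.23). A second probe, ILMN_2561221, gave 7.04 and 6.94 at 0 h, 6.43 and 6.86 at 6 h, and 6.95 and 6.90 at 24 h. On that probe the 24 h arrays overlapped with the 0 h arrays. On both probes replicate 1 at 6 h was the lowest of the naive arrays. The other probes of the gene were detected on no array.

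Crebbp, the paralogue of Ep300, had signals of 7.11 and 6.75 at 0 h, 6.17 and 6.84 at 6 h, and 6.82 and 6.62 at 24 h (ILMN_1255457). The groups overlapped at both times, and the array that stood apart was again replicate 1 at 6 h. Its log2 fold change was -0.43 ± 0.25 at 6 h (adjusted p 0.31, limma) and -0.21 ± 0.25 at 24 h (adjusted p 0.65). At 6 h it stood at -0.09 without replicate 1. Without replicate 2 it was -0.77 and called, with an adjusted p of 0.034. The probe ILMN_2695020 gave 7.18 and 6.68 at 0 h, 6.00 and 6.88 at 6 h, and 6.72 and 6.63 at 24 h, with the same array lowest.

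Hdac10 gave the lowest adjusted p of the measured genes at both times. Its signals were 7.39 and 7.42 at 0 h, 6.49 and 6.37 at 6 h, and 6.67 and 6.74 at 24 h. The 3 groups did not overlap, in the order 0 h, 24 h and 6 h from high to low. It fell by 0.98 ± 0.12 on the log2 scale at 6 h (1.97-fold lower; adjusted p 0.013, limma) and by 0.70 ± 0.12 at 24 h (1.63-fold lower; adjusted p 0.031). The difference between 24 and 6 h, 0.28 ± 0.12, missed the threshold (adjusted p 0.32). At 6 h the change was -1.05 without replicate 1 and -0.92 without replicate 2, called in both. The size kept within -1.05 to -0.92 at 6 h and -0.74 to -0.67 at 24 h when any array was left out, but the adjusted p from limma exceeded 0.05 without either array at 0 h or 24 h, reaching 0.14 at 6 h and 0.22 at 24 h.

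Sirt7 had signals of 11.93 and 11.84 at 0 h, 11.39 and 11.32 at 6 h, and 11.56 and 11.50 at 24 h (ILMN_1253970). These groups did not overlap either, in the same order as for Hdac10. It fell by 0.53 ± 0.12 on the log2 scale at 6 h (1.44-fold lower; adjusted p 0.049, limma), just inside the threshold. At 24 h the change was -0.35 ± 0.12, with an adjusted p of 0.14. Without replicate 1 at 6 h it stood at -0.55 with an adjusted p of 0.032, and without any other array the call at 6 h was lost, at -0.49 to -0.58 with adjusted p of 0.066 to 0.25. The second Sirt7 probe was detected on no array.

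Hdac7, the class IIa enzyme, had signals of 9.65 and 9.75 at 0 h, 9.16 and 8.47 at 6 h, and 9.05 and 9.25 at 24 h. All arrays with IL-7 lay below both 0 h arrays, and the 6 h arrays differed most from each other. Its log2 fold change was -0.88 ± 0.24 at 6 h (adjusted p 0.068, limma) and -0.55 ± 0.24 at 24 h (adjusted p 0.21), neither past the threshold. Other settings moved it past: at 6 h an offset of 50 gave -0.83 (adjusted p 0.049) and the mean-variance trend -0.88 (adjusted p 0.043), and at 24 h the arrays of the 2 times alone gave -0.55 (adjusted p 0.019, limma). At 6 h it was -1.23 with an adjusted p of 0.0017 without replicate 1 and -0.54 without replicate 2. At 24 h it kept to about the same size without either 6 h array, -0.55 and -0.56, and was called there with adjusted p of 0.021 and 0.020.

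The class I enzymes with a probe, Hdac2 and Hdac3, passed the test at neither time. Hdac2 had 10.77 and 10.70 at 0 h, 10.26 and 10.57 at 6 h, and 10.88 and 10.63 at 24 h, with log2 fold changes of -0.32 ± 0.16 at 6 h (adjusted p 0.25, limma) and 0.02 ± 0.16 at 24 h (95% interval -0.37 to 0.41). Replicate 1 at 6 h was again the lowest array, and the 24 h arrays lay on both sides of the 0 h arrays. A dimmer Hdac2 probe, ILMN_1231785, had 5.70 and 5.85 at 0 h, 4.79 and 5.55 at 6 h, and 5.77 and 5.54 at 24 h, undetected on the lowest of these. Hdac3 had 9.17 and 9.05 at 0 h, 9.27 and 9.51 at 6 h, and 9.27 and 9.41 at 24 h. Its log2 fold changes were 0.28 ± 0.14 at 6 h (adjusted p 0.26) and 0.23 ± 0.14 at 24 h (adjusted p 0.37), with every array with IL-7 above both 0 h arrays. It was the one measured deacetylase whose means were above 0 h at both times, and neither difference passed the test.

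**Figure D3:**
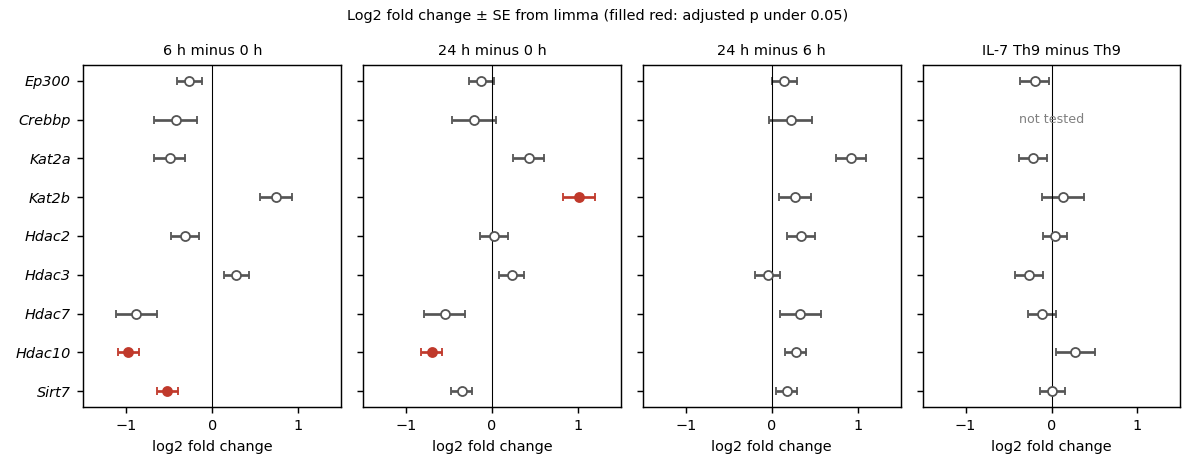
Log2 fold changes with their SE (horizontal axis) for the 9 measured genes in the 4 comparisons within a BeadChip, filled red where the adjusted p from limma was under 0.05. Kat2b at 24 h, Hdac10 at 6 and 24 h and Sirt7 at 6 h are filled, and no gene is filled at 24 h against 6 h or in IL-7 Th9 against Th9.

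**Figure D4:**
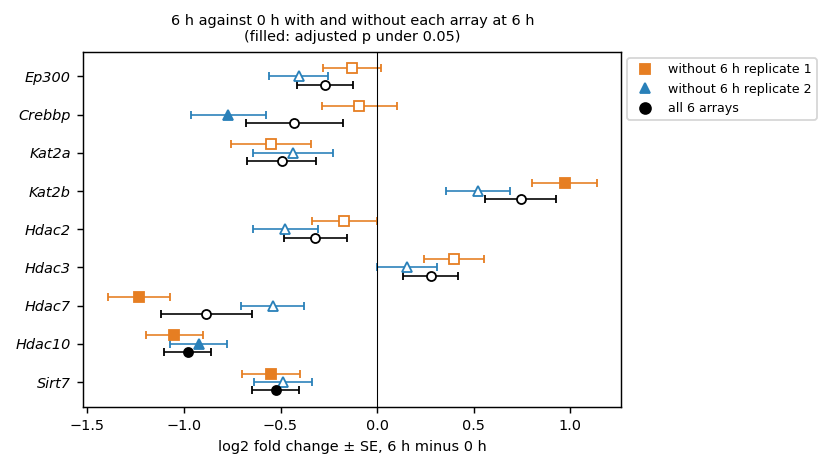
Log2 fold change at 6 h against 0 h with its SE (horizontal axis) for each gene, without replicate 1 at 6 h (squares), without replicate 2 (triangles) and with all 6 naive arrays (circles), filled where the adjusted p was under 0.05. Hdac10 is filled in all 3 fits, while Kat2b and Hdac7 are filled without replicate 1 alone and Crebbp without replicate 2 alone.

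At 24 h against 6 h, 0 of the 9 genes were called by limma, where 0.398% of all features were called, 0.108% higher and 0.289% lower. An unadjusted p under 0.05 was found for 1884 features, among them Kat2a (0.0019) and none of the other 8 genes. The arrays of the 2 times did not overlap for Kat2a, Hdac2, Hdac10 and Sirt7, 4 of 9 genes, all higher at 24 h, against 47.3% of all features not overlapping.

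In the Th9 cultures 0 of 8 tested genes were called between IL-7 Th9 and Th9 cells, where 0.343% of the 9635 features were called (0.156% higher and 0.187% lower by limma, with 956 at an unadjusted p under 0.05). None of the 8 had an unadjusted p under 0.05, and for none were the 3 IL-7 Th9 arrays all above or all below the 3 Th9 arrays, against 14.7% of all features. The log2 fold changes ran from -0.26 to 0.28. With standard errors of 0.14 to 0.24, their 95% intervals reached at most 0.79 upwards (Hdac10) and -0.62 downwards (Hdac3).

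Kat2b had normalised log2 signals of 5.17, 5.55 and 5.26 in IL-7 Th9 cells, against 5.26, 5.66 and 4.67 in Th9 cells. The lowest Th9 array was below detection, and the log2 fold change was 0.13 ± 0.24 (adjusted p 0.92, limma). ILMN_1231686 was detected on 0 of 3 IL-7 Th9 arrays and 1 of 3 Th9 arrays, and ILMN_2591641 on none of either group. Kat2a had 6.90, 7.27 and 6.96 in IL-7 Th9 cells, against 7.16, 7.43 and 7.17 in Th9 cells, a log2 fold change of -0.21 ± 0.16. Ep300 had 8.13, 7.75 and 7.84 in IL-7 Th9 cells, against 8.29, 8.12 and 7.89 in Th9 cells, -0.20 ± 0.17. Each pair of groups overlapped, and the Ep300 probe ILMN_2561221 was detected on none of the 6 arrays. Crebbp was detected on none of the 6 arrays with any probe, so no fold is given. ILMN_1255457 stood at 4.91, 4.45 and 4.68 in IL-7 Th9 cells, against 4.46, 4.30 and 4.33 in Th9 cells, where the lowest detected signal of an array lay between 4.89 and 5.15.

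Hdac10 had 5.66, 5.01 and 5.78 in IL-7 Th9 cells, against 5.21, 5.46 and 4.95 in Th9 cells, with 2 of 3 arrays detected in each group and a log2 fold change of 0.28 ± 0.23 (adjusted p 0.79, limma). Sirt7 had 9.76, 9.74 and 9.80 in IL-7 Th9 cells, against 9.93, 9.67 and 9.66 in Th9 cells, a difference of 0.01 ± 0.14 with a 95% interval of -0.31 to 0.33. The IL-7 Th9 arrays lay inside the range of the Th9 arrays. Hdac7 had 9.80, 9.57 and 9.31 in IL-7 Th9 cells, against 9.64, 9.65 and 9.73 in Th9 cells, -0.11 ± 0.16. Hdac2 had 10.68, 10.71 and 10.72 in IL-7 Th9 cells, against 10.61, 10.84 and 10.55 in Th9 cells, 0.04 ± 0.14. Hdac3 had 8.74, 8.60 and 8.63 in IL-7 Th9 cells, against 8.65, 9.03 and 9.08 in Th9 cells, -0.26 ± 0.16. For Hdac3 the 2 groups overlapped through the lowest Th9 array.

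Whether the change with IL-7 differed between the cell states was tested as the 24 h effect in naive cells minus the effect in Th9 cells, over the 12 arrays normalised together. The exposures were unlike: 24 h of IL-7 in naive cells, but 48 h of IL-7 before 3 days of culture in Th9 cells. Cell state thus cannot be told apart from length of exposure or time since IL-7 in this test. By limma 0 of the 8 genes tested in both cell states were called, where 3.75% of 12248 features were called, 2.06% with a positive and 1.69% with a negative difference. An unadjusted p under 0.05 was found for 2210 features. The largest differences were -0.997 ± 0.35 for Hdac10 (adjusted p 0.16), 0.82 ± 0.42 for Kat2b (adjusted p 0.34) and 0.65 ± 0.25 for Kat2a (adjusted p 0.19). Hdac10, Kat2a, Hdac3 (0.49 ± 0.22) and Sirt7 (-0.39 ± 0.18) had unadjusted p of 0.016 to 0.049. Without IL-7 Th9 replicate 2 the difference for Hdac10 was called, at -1.28 with an adjusted p of 0.028 from limma. For Hdac10 and the main Kat2b probe, a call in naive cells at 24 h beside none in Th9 cells was thus not shown to be a difference between the cell states. Sirt7 was called in naive cells at 6 h alone, and its 6 h change was not compared with that in Th9 cells.

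Levels in Th9 and naive cells stood on different BeadChips, so cell state and chip cannot be told apart and no test was made. With the 12 arrays normalised together, Sirt7 averaged 9.99 ± 0.03 in IL-7 Th9 cells, 9.98 ± 0.14 in Th9 cells and 11.85 ± 0.06 in naive cells at 0 h (SD, n = 3, 3 and 2). Hdac10 averaged 5.75 ± 0.48 in IL-7 Th9 cells, 5.44 ± 0.31 in Th9 cells and 7.12 ± 0.02 in naive cells. The Th9 means were 3.65-fold lower for Sirt7 and 3.22-fold lower for Hdac10 than the naive means. Kat2b averaged 5.59 ± 0.23 in IL-7 Th9 cells, 5.40 ± 0.61 in Th9 cells and 6.43 ± 0.03 in naive cells. Crebbp, undetected on all 6 Th9 arrays and detected on every naive array, was at least 2.79-fold lower in Th9 than in naive cells at 0 h, with measured means of 4.37 in Th9 cells and 6.66 in naive cells and, for the bound, the undetected arrays raised to their lowest detected signal. Ep300 averaged 8.24 ± 0.19 in IL-7 Th9 cells, 8.42 ± 0.19 in Th9 cells and 8.89 ± 0.08 in naive cells (ILMN_2800358). Its probe ILMN_2561221 stood further apart, at 4.73 ± 0.43 in IL-7 Th9 cells, 4.85 ± 0.36 in Th9 cells and 6.71 ± 0.07 in naive cells. That probe was detected on every naive array and on no Th9 or IL-7 Th9 array. The other 4 genes lay nearer together, with Th9 minus naive differences of -0.03 for Kat2a, 0.18 for Hdac2, 0.33 for Hdac3 and 0.43 for Hdac7 on the log2 scale. In Th9 cultures 4 of the 19 member probes were detected on no array while detected on every naive array, and 6 were detected on all 12 arrays.

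In naive cells, further genes of histone acetylation were called against 0 h in a smaller share than all features. The share whose groups stood apart was close to that of all features. Neither difference was tested. Lists of 148 further genes covered other acetyltransferases and deacetylases, subunits of acetyltransferase and corepressor complexes, acetyl-lysine readers and enzymes of acetyl-CoA and NAD supply. Of these, 137 had a probe and 120 were tested in naive cells. At 6 h 3 rose and 3 fell (5% of 120, where 9.43% of all features were called), and at 24 h 1 rose and 0 fell (0.833%, where 6.16% of all features were called). Arrays at 6 h stood all above or all below those at 0 h for 67 of 120 genes (55.8%, against 57.8% of all features), and those at 24 h for 74 (61.7%, against 63.3%). Without replicate 1 at 6 h, 9 rose and 8 fell at 6 h, 14.7% of the 116 then tested, where 24.3% of all 10866 features were called. In the same fit 9 rose and 6 fell at 24 h, 12.9% of 116, where 22.2% of all features were called. In IL-7 Th9 against Th9, 0 of 105 were called, where 0.343% of all features were called. The groups stood apart there for 10 of the 105 (9.52%, against 14.7% of all features). The lists' medians lay between -0.09 and 0.12 on the log2 scale at 6 h and between -0.09 and 0.10 at 24 h, where the medians of all features were -0.03 and -0.0032.

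Among the corepressor subunits Sap30, a component of the SIN3 complex, rose at both times. Its signals were 7.58 and 7.62 at 0 h, 8.33 and 8.39 at 6 h, and 8.42 and 8.40 at 24 h, with log2 fold changes of 0.76 ± 0.12 at 6 h and 0.81 ± 0.12 at 24 h (adjusted p 0.019 in both, limma). Both times stood clear of 0 h. The call at 24 h was kept in 2 of the 6 fits without 1 array. In the Th9 cultures it had 10.89, 9.67 and 9.99 in IL-7 Th9 cells, against 9.89, 10.09 and 10.16 in Th9 cells, which overlapped. Arid4b, another subunit of SIN3 complexes, rose at 6 h by 1.07 ± 0.25 (adjusted p 0.049, limma), with 7.54 and 8.09 at 6 h against 6.54 and 6.95 at 0 h. Chd3, an ATPase of the NuRD complex, fell by 1.05 ± 0.18 at 6 h (adjusted p 0.024, limma), with 8.94 and 8.47 at 6 h against 9.71 and 9.79 at 0 h. At 24 h Arid4b stood at 6.95 and 7.31 and Chd3 at 9.21 and 9.19, both between their levels at 6 h and 0 h and neither called against 0 h. Of the acetyltransferase complex subunits, Taf9, shared by TFIID and SAGA, fell by 0.65 ± 0.14 at 6 h, with 7.79 and 7.71 at 6 h against 8.28 and 8.52 at 0 h. Kansl2 of the NSL complex fell by 0.52 ± 0.12, with 10.03 and 10.03 at 6 h against 10.53 and 10.58 at 0 h. Mcrs1, also of the NSL complex, rose by 0.75 ± 0.15, with 8.26 and 8.23 at 6 h against 7.66 and 7.32 at 0 h (adjusted p 0.036 to 0.045 for the 3, limma). Without replicate 1 at 6 h all 6 were called at 6 h in the same direction, with adjusted p of 9.3e-04 to 0.037, while each lost its call in 4 or 5 of the 6 fits without 1 array. Ing4, a subunit of the HBO1 acetyltransferase complex, had 9.98 and 9.91 at 24 h against 9.39 and 9.44 at 0 h in naive cells (adjusted p 0.092, limma). It had 7.26, 7.50 and 7.18 in IL-7 Th9 cells against 7.75, 7.84 and 7.75 in Th9 cells (adjusted p 0.31, limma). Neither change was called, but the difference between them was, at 1.00 ± 0.20 (adjusted p 0.025, limma). For that difference Ing4 was the 1 called of 121 further genes (0.826%), where 3.75% of all features were called. It was called in 7 of the 12 fits without 1 array.

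**Figure D5:**
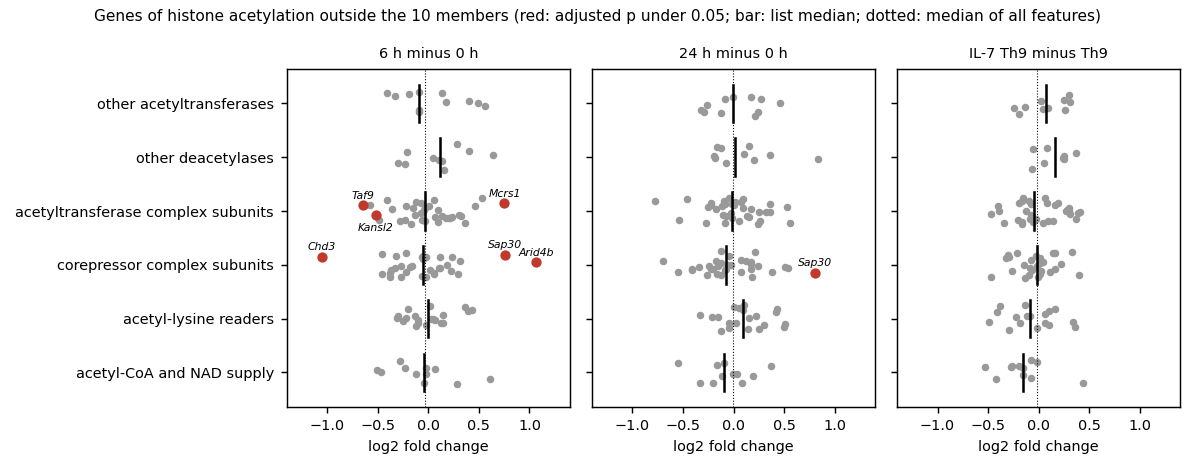
Log2 fold changes (horizontal axis) of the genes of 6 further acetylation lists at 6 h and 24 h against 0 h and in IL-7 Th9 against Th9 cells, with the list's median as a bar, the median of all features as a dotted line and called genes in red. At 6 h Sap30, Arid4b and Mcrs1 rose and Chd3, Taf9 and Kansl2 fell, at 24 h Sap30 alone is red, and no point is red in the Th9 comparison.

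The genes nearest in profile to Kat2b, Hdac10 and Sirt7, which changed, and to Ep300, which did not pass the test, were found as the smallest root mean square difference of log2 signals over the 12 arrays, centred within each BeadChip, among 7108 symbols tested on both. For Kat2b, whose own root mean square around its centre was 0.39, they were Slc25a36 (0.14), Eml5 (0.15) and Kif2a (0.16). For Hdac10, at 0.37, they were Narf (0.13), Atpsckmt (0.17) and Gse1 (0.17). For Sirt7, at 0.17, they were Hmgxb3 (0.08), Trappc1 (0.08) and Tbc1d10c (0.09). Ep300, at 0.17, had Srsf11 (0.08), Nprl2 (0.08) and Ric8b (0.08) nearest. The points share arrays and normalisation, and no p-value is attached to the likeness.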

How the data were processed

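The deposited intensity of each probe is a background-subtracted linear signal that can be negative, made with GenomeStudio per the submitters' processing notes. The deposited table also gives a detection p-value per probe and array. Scaled intensity values in another deposited table could not be used by probe name, so only its factor per array (0.74 to 1.41) served, as an alternative. Probe symbols came from GEO's platform annotation (34885 probes with 1 symbol, 18 with several, 10378 with none), and the RefSeq gene table (GRCm38.p6) changed 0 of them.

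Signals were normalised in R 4.3.3 by the limma 3.58.1 function neqc (normexp, quantile, offset 16, log2), separately for each BeadChip and for 12 arrays together in the test between cell states. Features needed a detection p under 0.01 on 2 arrays, or 3 on the second BeadChip, and the brightest passing probe stood for a symbol. Group means were fitted with lmFit and eBayes, with 2-sided p-values adjusted by Benjamini and Hochberg over all features and called under 0.05. Scripts were tested on simulated data. The members and the lists were chosen with earlier results of these data known. Further genes named are, per list and comparison, up to 4 called genes with the largest change. Alternatives were offset 50, array factors, joint normalisation, other detection filters, other probe rules, a mean-variance trend, arrays of 2 times alone, a replicate block and leaving out each array.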

Additional observations from a re-analysis of the deposited data

Results flagged for a closer look

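The Kat2b probe ILMN_1231686 is listed here because the test of a difference in its IL-7 change between the cell states gave an adjusted p under 0.05, but that test cannot be read as a difference in response. With every probe as a feature of its own, the effect at 24 h in naive cells minus the effect in Th9 cells was 1.23 ± 0.28 on the log2 scale (adjusted p 0.038, limma). In naive cells its signals were 7.77 and 7.77 at 24 h, against 6.49 and 6.62 at 0 h. In IL-7 Th9 cells they were 4.77, 4.74 and 4.94, against 4.60, 5.03 and 4.91 in Th9 cells, where it was detected on 1 of the 6 arrays. It passed the detection filter through the naive arrays, and a change in Th9 cells could not be measured at this signal, so the value restates the effect in naive cells. The probe ILMN_1215305, detected on 5 of the 6 Th9 arrays, gave 0.82 ± 0.41 (adjusted p 0.36) in the same fit.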

How the results depend on the processing

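In naive cells the calls are less stable than the sizes. At 6 h 1 of the 2 called genes was left with array factors, with detection p under 0.05, with every probe a feature, with arrays of the 2 times alone and with the replicate block, since Sirt7 (-0.53 to -0.59 there) moved to adjusted p of 0.051 to 0.11 by limma, while Hdac10 was called in all 10 alternatives other than leaving out an array. At 24 h 1 was left without a detection filter, where Kat2b had an adjusted p of 0.082, and 1 with the replicate block, where Hdac10 had 0.057. Leaving out 1 array moved the number of called genes in the naive comparisons and for the difference between cell states. The calls over all features, given below, moved as well. For IL-7 Th9 against Th9 the number of called genes stayed at 0. The cause was not tested.

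Over all features, the calls without a detection filter were 519 at 6 h, 211 at 24 h, 7 at 24 h against 6 h and 4 for IL-7 Th9 against Th9. With the arrays of the 2 times alone they were 180, 2466 and 4 in the first 3 of these comparisons, which leaves fewer samples. At 24 h against 6 h offset 50 gave 67, the mean-variance trend 73 and array factors 10. For IL-7 Th9 against Th9 offset 50 gave 88, the trend 103 and 12 arrays normalised together 15. Without 1 array the counts ran from 3 to 2645 at 6 h, 1 to 2418 at 24 h, 0 to 1476 at 24 h against 6 h, 8 to 62 for IL-7 Th9 against Th9 and 64 to 676 for the difference between cell states. The highest count at 6 h came without replicate 1 at 6 h, and those at 24 h, against 0 h and against 6 h, came without replicate 2 at 6 h.

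Whether the replicate numbers pair the samples is not known. Deviations of same-numbered arrays correlated at 0.063, 0.144 and -0.185 on the first BeadChip and at -0.061, -0.099 and 0.289 on the second. On the first BeadChip the deviations within a group mirror each other, so differently numbered arrays gave the same values with the sign reversed. On the second, those of differently numbered arrays ran from -0.339 to 0.398. These values cannot decide whether the samples were paired. With the replicate block 681 features were called at 6 h, 449 at 24 h and 5 at 24 h against 6 h.

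Of the log2 fold changes of single genes, 403 of those under other settings kept their direction and their side of the threshold, 7 lost the call, 3 gained it and 1 turned, Hdac2 at 24 h (-0.048 as the mean of its probes). Without 1 array 274 kept both, 17 lost the call, 7 gained it and 20 turned, all of them small and uncalled. These ranges crossed 0 for Hdac2 at 24 h (-0.10 to 0.15), at 24 h against 6 h for Crebbp (-0.12 to 0.56), Hdac3 (-0.17 to 0.074) and Hdac7 (-0.015 to 0.68), and for IL-7 Th9 against Th9 in Kat2b (-0.13 to 0.37), Hdac2 (-0.026 to 0.12), Hdac7 (-0.23 to 0.012) and Sirt7 (-0.034 to 0.098). For the difference between cell states they crossed 0 in Ep300 (-0.035 to 0.16) and Hdac2 (-0.15 to 0.14). Signal near background limits Kat2b, Hdac10 and Crebbp in Th9 cells.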
